A study of Homo sapiens with 8 samples.

Results

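The comparison was of endoderm cells with the pluripotent stem cells (hPSC) they were grown from, in long-read RNA sequencing of the H1 line, an established human embryonic stem cell line. It used 4 of the 8 libraries of the study, 2 repeats of each group, chosen by the cell type in their labels. The hPSC were kept in mTeSR1 medium on Matrigel. The endoderm cells were collected after 5 days in RPMI medium with GlutaMax, WNT3A, 100 ng/ml Activin A and 0.5% FBS. The other 4 libraries, 2 of ectoderm and 2 of mesoderm from the same line, entered the fit to help estimate the spread and served as a second comparison. Both layers were also collected after 5 days, in DMEM/F12 medium, the ectoderm with KOSR, A83-01, PNU-74654 and Dorsomorphin, and the mesoderm with VEGF, BMP4, bFGF and FBS, plus Activin A on the opening day alone. All groups therefore stand for 1 cell line, and no label says that repeats came from separate cultures, so p-values measure only the spread between these libraries. Of 20195 genes with reads in the combined transcript assembly, 10525 had enough counts to be tested.

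Definitive endoderm is the germ layer from which gut, liver, pancreas and lung arise. It forms in the primitive streak under NODAL signalling, which Activin A imitates in culture because it uses the same receptors and SMAD proteins, and WNT signalling starts the same step. NODAL-responsive cells switch on their own inhibitors, while the pluripotency network is shut down in steps, with OCT4 and NANOG kept longer than SOX2 in this lineage.

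The endoderm label was checked first against markers of the lineage. The summed level of 12 endoderm markers was 7.70 and 1.78 CPM (each count divided by the total of its library and multiplied by 1e6) in the hPSC libraries against 3779 and 3844 in the endoderm libraries. In ectoderm the 12 summed to 3 and 1 counts, and in mesoderm to 8 and 4. The 10 that could be tested were all higher in endoderm. They had enough counts only through their endoderm reads, so this number of calls is no check of the label. The secreted inhibitor CER1 had no count in either hPSC library and 974 and 1181 in endoderm. The transcription factors EOMES (70 and 56 counts), GATA4 (72 and 64), GATA6 (21 and 28) and GSC (42 and 35), and the chemokine receptor CXCR4 (40 and 50), were likewise at 0 in both hPSC libraries. SOX17, the factor most used to define the layer, was at 0 in hPSC but differed between the endoderm repeats, with 150 counts in repeat 1 and 16 in repeat 2, and its call was lost by DESeq2. FGF17 had 1 and 0 counts in hPSC and 792 and 776 in endoderm, MIXL1 had 0 and 1 against 14 and 23, and LHX1 had 1 and 0 against 23 and 12. FOXA2 (3 and 4 counts in endoderm, none in hPSC) and HHEX (12 and 8, against 2 and 0) were too low to be tested.

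Markers of other cell types were then checked. Of 9 mesoderm markers, MESP1, MSGN1, MEOX1 and FOXC2 were at 0 in endoderm, and the summed level of all 9 was 47.8 and 17.1 CPM there, against 523 and 584 in the mesoderm libraries. The 1 mesoderm marker that could be tested, HAND1, had no count in hPSC, 20 and 6 in endoderm, and 263 and 274 in mesoderm. For visceral endoderm, the extraembryonic counterpart, AFP, TTR, APOB, SOX7, AMN and CUBN were at 0 in both endoderm libraries, and the summed level of the 8 listed genes, from APOA1 and APOA2, was 212 and 239 CPM against 5.78 and 3.56 in hPSC, 2.54 and 5.17 in ectoderm and 18.8 and 9.92 in mesoderm, so this sum was highest in endoderm. The 8 neural markers summed to 10.2 and 10.2 CPM in endoderm, with SOX1, LHX5, DLK1, HESX1, POU3F1 and LHX2 at 0. The 8 amnion and trophoblast markers summed to 80.3 and 52.9 CPM, against 48.1 and 17.8 in hPSC and 5554 and 6052 in mesoderm, with GABRP, TFAP2B, VTCN1 and CGA at 0. The 8 blood and endothelium markers summed to 17.1 and 17.1 CPM, with PECAM1, CDH5, TIE1, TAL1 and PTPRC at 0. The part of these cell types in the results was not tested. A count of 0 in a library allows up to 3 counts, 5.12 CPM in an endoderm library, which covers counting error only. In bulk RNA, fewer cells of a type and less RNA per cell cannot be told apart.

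The libraries held 519306 and 562042 counts in hPSC and 585558 and 586183 in endoderm. Of the genes tested, 2831 (26.9%) differed at an adjusted p under 0.05 (edgeR's quasi-likelihood test, Benjamini-Hochberg), with 1411 genes (13.4%) higher than in hPSC and 1420 (13.5%) lower. The shares of 13.4% and 13.5% are the background for every list count given below. The median log2 fold change of all genes tested was -0.12, and with another scaling, by DESeq2 size factors, it was -0.08. The TMM scaling of the fit raised the log2 fold changes of endoderm over hPSC by about 0.335 relative to CPM. CPM values, and ratios taken from pooled counts, do not include this shift. hPSC repeat 2 stood apart from repeat 1. Of the genes tested with at least 20 counts in repeat 1, 462 were at least 4-fold lower in CPM in repeat 2, against 1 gene in the other direction. The endoderm repeats had 16 and 1 such genes. Of the 16 genes low in endoderm repeat 2, 9 were among the 462 low in hPSC repeat 2. Without hPSC repeat 2, 4002 of 11595 genes differed, 2001 in each direction, and without endoderm repeat 1 or 2 the counts were 1533 and 1360. The mitochondrially encoded share of counts was 2.06% and 4.49% in hPSC and 2.68% and 3.46% in endoderm. Leaving out 1 endoderm library cost more of the lower calls than of the higher ones, 550 and 460 lower calls against 983 and 900 higher.

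**Figure D1:**
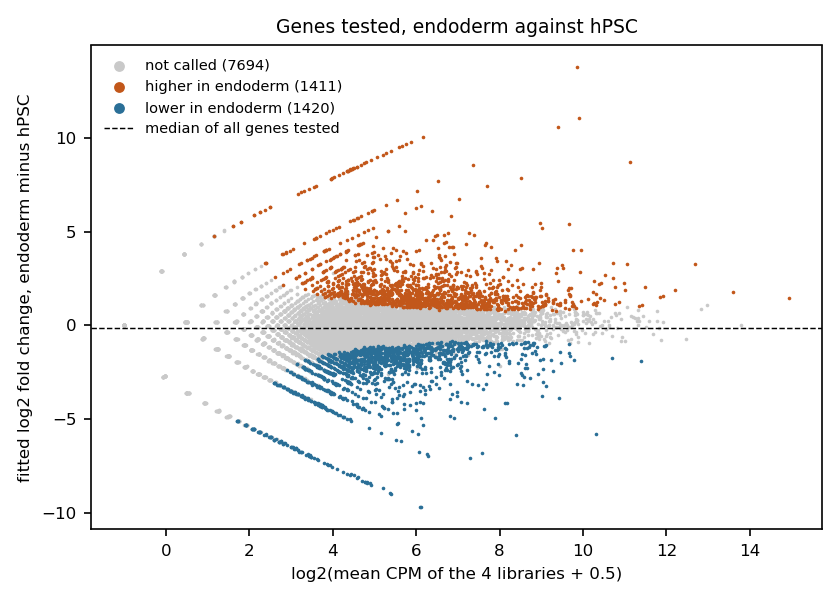
Fitted log2 fold change of endoderm over hPSC (vertical axis) against log2 of the mean CPM of the 4 libraries plus 0.5 (horizontal axis), 1 point per gene tested. The 1411 genes higher in endoderm reach larger changes than most of the 1420 lower ones, and the dashed median of all genes lies at -0.12.

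The genes with the highest ratio of endoderm to hPSC included secreted signals, their inhibitors and receptors. After LEFTY1, CER1 and FGF17 came CYP26A1, an enzyme that breaks down retinoic acid, which rose from 5 and 9 counts to 2813 and 2371, 342-fold (95% interval 203 to 626, counting error only). ACKR3, a scavenger receptor for the chemokine CXCL12, had 0 and 3 counts in hPSC and 216 and 263 in endoderm, while CXCL12 itself fell from 65 and 31 counts to 0 and 1. PLXNA2, a semaphorin receptor, had 1 and 0 counts against 190 and 193. WLS, which carries WNT proteins to the cell surface, had 2 and 1 against 182 and 119, and PCSK2, a convertase that cuts prohormones, had 1 and 2 against 95 and 95. The adaptor DAB2 and the stress-response gene IER3 also stood among the 15 highest, with 0 and 2 against 82 and 65 counts and 1 and 1 against 68 and 90.

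Apart from CXCL12, these genes were also higher than in the ectoderm and mesoderm libraries by the test of endoderm against both of those layers. That test called 59.1% of all genes, 29.1% as higher and 29.9% as lower in endoderm, and 1199 genes were higher in endoderm than in hPSC and than in the other layers. The test is against the mean of both layers, and WLS (129 and 165 counts) and DAB2 (62 and 77) were near their endoderm counts in mesoderm. Both comparisons share the endoderm libraries.

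CYP26A1 lies on chromosome 10 (GRCh38, plus strand, 93073475 to 93077885). Of its endoderm reads, 98.5% and 99.1% belonged to the assembled transcript that starts at 93073891. The sequence before that start is shown because this gene had the most reads of all named genes that were nearly silent in hPSC, and because retinoic acid receptors are known to act on it. The 250 bases upstream of the RefSeq start (GRCh38.p14, chr10:93073643-93073892, plus strand) hold the word AGTTCA, a half-site for retinoic acid receptors, in reverse 2 times with 5 bases between, and the SMAD word CAGACA in reverse 1 time. Capitals mark these words. The sequence before the start of CER1 (chr9:14722734-14722983, minus strand) holds CAGACA once, in capitals. The windows before the starts of NODAL, EOMES, GSC, WNT3, SERPINB9 and DNMT3B, and before the other RefSeq start of CYP26A1, were searched too and hold no CAGACA, so the windows printed are those with a CAGACA match. Those of GSC and WNT3 hold AGTTCA once each.
CYP26A1 promoter: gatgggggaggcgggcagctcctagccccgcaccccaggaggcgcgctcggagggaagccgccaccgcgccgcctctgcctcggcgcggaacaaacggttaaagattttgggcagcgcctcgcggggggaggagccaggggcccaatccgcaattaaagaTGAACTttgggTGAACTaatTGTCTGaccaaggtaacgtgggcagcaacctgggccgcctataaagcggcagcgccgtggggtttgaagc
CER1 promoter: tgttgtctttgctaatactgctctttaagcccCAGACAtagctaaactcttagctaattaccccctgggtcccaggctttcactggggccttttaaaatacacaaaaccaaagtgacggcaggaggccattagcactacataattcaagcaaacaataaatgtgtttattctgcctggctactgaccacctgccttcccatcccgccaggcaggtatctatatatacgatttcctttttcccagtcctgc
Among 35116 RefSeq promoters of the same length, searched on both strands, 8.80% hold AGTTCA and 13.6% hold CAGACA. The FOXH1, GATA, TCF/LEF and T-box words occur in 0.709%, 9.17%, 3.8% and 0.786% of them. A pair of AGTTCA words in the same orientation with any 5 bases between occurs in 3 of these promoters (0.00854%). A match describes letters in a window and shows no binding.

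Other genes of retinoic acid metabolism moved less. Of 23 listed genes 16 were tested, 2 were higher and 2 lower, with a median log2 fold change of -0.29. ALDH1A3, which makes retinoic acid, rose from 5 and 3 counts to 23 and 15 (log2 fold change 2.44 ± 0.51 SE, edgeR adjusted p = 0.00266). The binding protein CRABP1 had 62 and 76 counts in hPSC and 24 and 22 in endoderm, and the reductase DHRS3 had 12 and 17 against 2 and 4. Both of those lower calls were lost without either endoderm repeat, and that of DHRS3 also without hPSC repeat 2. The receptor RARG did not pass the test as a whole gene (93 and 85 counts against 62 and 50), but its transcripts changed, as described further on.

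The NODAL pathway showed its ligand and its inhibitors higher together. NODAL rose from 3 and 15 counts to 130 and 194 (log2 fold change 4.36 ± 0.52 SE, adjusted p = 4.24e-05 by edgeR). LEFTY1 and LEFTY2, which block NODAL and its coreceptor, had 0 and 1 and 2 and 2 counts in hPSC, and 1198 and 1034 and 383 and 470 in endoderm. They are close copies of each other, and how shared reads were counted is not stated, so the split between them is uncertain. The ratio over both repeats was 2060 for LEFTY1, with a counting interval from 369 upward, and 197 for LEFTY2 (76.6 to 724). GDF3, a related ligand, rose from 5 and 4 counts to 25 and 20, although that call was lost without endoderm repeat 1. The coreceptor TDGF1 did not pass the test and was abundant in both groups, with 524 and 626 counts in hPSC and 452 and 351 in endoderm.

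Among receptors and effectors of the pathway, 3 of 11 tested genes were higher and none lower. Their median log2 fold change was -0.54, so the list as a whole did not rise. FOXH1, the DNA-binding partner of SMAD2, rose from 55 and 47 counts to 86 and 103 (log2 fold change 1.12 ± 0.31 SE), and SMAD2 from 31 and 23 to 53 and 50. The FOXH1 call was lost without endoderm repeat 2, with 4 libraries only and by DESeq2, and the SMAD2 call without either endoderm repeat, with 4 libraries only and with reference-matching transcripts only. The receptor ACVR1B stayed within its spread, with 13 and 13 counts against 10 and 14. Among 11 inhibitors and feedback genes 5 were higher and 1 lower.

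**Figure D2:**
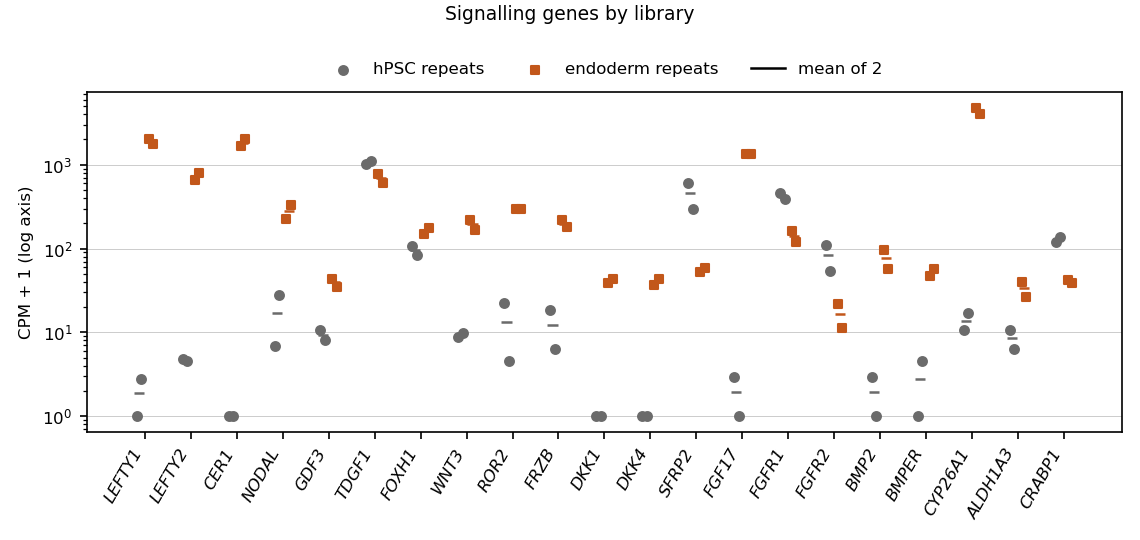
CPM plus 1 on a log axis for 21 signalling genes in the 2 hPSC (circles) and 2 endoderm libraries (squares), with bars at the mean of 2. The NODAL inhibitors LEFTY1, LEFTY2 and CER1, and FGF17 and CYP26A1, lie far above hPSC in both endoderm libraries, TDGF1 is near its hPSC level, and SFRP2, FGFR1, FGFR2 and CRABP1 lie below.

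Single WNT genes changed in both directions. Of 17 tested ligands and receptors 4 were higher and 2 lower, and of 19 tested antagonists and feedback genes 7 were higher and 5 lower. The medians were 0.10 and -0.00 on the log2 scale. Of all genes tested 13.4% were higher and 13.5% lower. The lower count of ligands and receptors was 4 without hPSC repeat 2 and 1 without hPSC repeat 1 or either endoderm repeat, and that of antagonists was 3 without endoderm repeat 2. The ligand WNT3 rose from 4 and 5 counts to 129 and 97 (log2 fold change 4.84 ± 0.47 SE), and the receptor ROR2 from 11 and 2 to 175 and 171 (4.95 ± 0.45 SE). LGR5, a receptor for R-spondins, had no count in hPSC and 22 and 15 in endoderm. DKK1 and DKK4, secreted blockers of the WNT coreceptor, were at 0 in both hPSC libraries and had 22 and 25, and 21 and 25, counts in endoderm, at least 14.5-fold and 14.2-fold higher. The secreted blocker FRZB rose from 9 and 3 counts to 127 and 104.

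On the lower side, SFRP2, another secreted blocker, fell from 317 and 167 counts to 30 and 34 (log2 fold change -2.67 ± 0.37 SE). The glypican GPC3 fell from 62 and 77 counts to 2 and 5, and had 1634 and 1205 counts in ectoderm. MYC, a growth factor-responsive transcription factor, fell from 114 and 118 counts to 28 and 20.

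Of 10 tested FGF ligands and receptors 3 were higher and 2 lower. FGF17 led, with a ratio of 1447 and a counting interval from 259 upward. FGFR1 had 241 and 216 counts in hPSC and 93 and 70 in endoderm, FGFR2 had 57 and 30 against 12 and 6, and the decoy receptor FGFRL1 had 1 and 5 against 36 and 30. FGFR4 did not pass the test, with 109 and 104 counts against 93 and 119. The FGFR2 call was lost without endoderm repeat 2 and the FGFR1 call without either endoderm repeat. Without hPSC repeat 2, 6 genes of the list were lower rather than 2. Without endoderm repeat 2 none was lower. Of 16 tested feedback genes of the MAPK pathway below these receptors, 2 were higher and 3 lower. Of all genes tested 13.4% were higher and 13.5% lower. The ERK phosphatase DUSP4 rose from 16 and 11 counts to 68 and 55, while DUSP6 and SPRY4, other feedback genes of this pathway, did not pass the test (56 and 98 against 128 and 89, and 63 and 88 against 92 and 94). Both passed as higher without hPSC repeat 2. The lower genes were SPRY1 (12 and 9 counts against 2 and 3), ETV1 (12 and 8 against 1 and 3) and ETV4 (153 and 153 against 59 and 86), and none of the list was lower without either endoderm repeat or by DESeq2. Without hPSC repeat 1, 6 were higher and 1 lower, and without hPSC repeat 2, 4 were higher.

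For BMP signalling, 8 of 22 tested genes were higher and none lower, with a median of 1.39. The ligand BMP2 had 1 and 0 counts in hPSC and 55 and 33 in endoderm, and BMP4 rose from 3 and 5 to 36 and 16. The extracellular modulator BMPER had 0 and 2 against 27 and 33, and the inhibitory SMAD6 had 3 and 0 against 20 and 18. ID3, a target of the pathway, did not pass the test, with 169 and 209 counts against 204 and 201. Among chemokine and growth factor receptors 9 of 30 were higher and 5 lower, with 2 and 1 lower without endoderm repeat 1 or 2. EPHA2, an ephrin receptor, rose from 20 and 13 counts to 116 and 94.

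Genes of cell shape and adhesion changed in both directions. Keratins of simple epithelia were among those that rose. KRT8 had 181 and 330 counts in hPSC and 2117 and 2311 in endoderm (log2 fold change 3.30 ± 0.41 SE), KRT18 had 306 and 355 against 1521 and 1740, and KRT19 had 68 and 66 against 906 and 964 (4.02 ± 0.36 SE). With them rose VIM, a filament protein of mesenchymal cells (34 and 29 against 325 and 274), and LMNA, of the nuclear lamina (121 and 66 against 812 and 669). Neither keratins nor vimentin overlapped between the groups. Of 10 tested intermediate filament genes 5 were higher and 2 lower, and the lower count was 0 without either endoderm repeat and by DESeq2, and 4 without hPSC repeat 2.

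N-cadherin (CDH2) rose from 13 and 13 counts to 241 and 198 (log2 fold change 4.28 ± 0.35 SE), and E-cadherin (CDH1) fell from 360 and 286 to 88 and 69 (-1.82 ± 0.30 SE). P-cadherin (CDH3) did not pass the test, with 222 and 264 counts against 142 and 140, except without hPSC repeat 1. SNAI1, which represses E-cadherin, rose from 7 and 9 counts to 40 and 36. Of the 18 tested genes in the list of cadherins and epithelial-mesenchymal transition 4 were higher and 2 lower, with 4 lower without hPSC repeat 1 and 1 without endoderm repeat 1.

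In the tight junction list 6 of 15 tested genes were lower, 1 was higher and 8 did not pass, with a median of -1.23. The lower count was 4 without either endoderm repeat and 9 without hPSC repeat 2. CLDN4 fell from 46 and 61 counts to 4 and 1, CLDN10 from 27 and 31 to 0 and 0 (at least 20.9-fold), and the scaffold TJP3 from 55 and 21 to 5 and 4. All of these, with CGN, were lower in endoderm than in ectoderm and mesoderm as well, although the CGN call against hPSC was lost without endoderm repeat 2. CLDN6 had 362 and 602 counts in hPSC and 599 and 771 in endoderm, and passed as higher only without hPSC repeat 2, where 4 genes of the list were higher. The 1 higher gene, the junction protein F11R, lost its call without either endoderm repeat.

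Of 27 tested collagens and collagen-processing genes 10 were higher and 6 lower, and of 22 basement membrane genes 10 were higher and 4 lower. COL5A1 rose from 4 and 4 counts to 102 and 93, COL5A2 from 10 and 5 to 116 and 123, COL9A2 from 4 and 1 to 143 and 117, and COL6A1 from 87 and 21 to 379 and 340. Fibronectin (FN1) rose from 49 and 66 counts to 555 and 472, although mesoderm had 5902 and 5528. SPARC, a collagen-binding glycoprotein, rose from 255 and 349 to 1402 and 1078, and COL4A1, of the basement membrane, from 19 and 5 to 100 and 71. NID1, which links laminin to collagen IV, fell from 37 and 41 counts to 3 and 6. The fibronectin receptor subunit ITGA5 rose together with its ligand, from 62 and 91 counts to 1077 and 1067 (log2 fold change 4.01 ± 0.36 SE). ITGB5 rose from 40 and 62 to 244 and 242. The laminin receptor subunit ITGA6 had 43 and 13 counts against 3 and 1, a call lost without endoderm repeat 2. Without endoderm repeat 1 or 2 the lower counts were 2 and 1 for the collagen list and 2 and 2 for the basement membrane list. SULF2, which trims heparan sulfate, rose from 9 and 7 counts to 130 and 122.

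Annexins and most S100 proteins bind calcium, and members of both families act at the cell cortex. Of 13 tested genes 9 were higher, none lower and 4 did not pass, with a median of 2.12. ANXA2 rose from 87 and 119 counts to 808 and 679, ANXA6 from 82 and 103 to 680 and 687, S100A10, the partner of ANXA2, from 29 and 44 to 202 and 220, and S100A16 from 8 and 11 to 104 and 96. ANXA6 had between 18 and 36 counts in the ectoderm and mesoderm libraries. The list as a whole was not particular to endoderm. Its summed level was 4843 and 4464 CPM in endoderm, 4442 and 4525 in mesoderm, 678 and 536 in ectoderm and 1173 and 1473 in hPSC. ANXA7 did not pass the test, with 76 and 109 counts against 86 and 79.

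The actin and myosin list had 18 of 40 tested genes higher and 4 lower, with a median of 0.93. MYL7, known from atrial muscle, had no count in hPSC and 54 and 43 in endoderm, at least 29.8-fold more. TAGLN, an actin-bundling protein, rose from 20 and 46 counts to 261 and 191, TAGLN2 from 43 and 57 to 252 and 276, and the cross-linker FLNC from 3 and 8 to 63 and 52. The cytoplasmic actin ACTG1 (2176 and 4244 counts against 6023 and 5999) passed only under some settings, among them without hPSC repeat 2, and the actin-binding PFN1 (1552 and 902 against 1329 and 1468) only without hPSC repeat 1. Without endoderm repeat 1 or 2 the lower count was 2 and 1. AMOTL1 and AMOTL2, which hold the Hippo effector YAP at junctions and actin, rose from 17 and 14 to 111 and 80 and from 69 and 49 to 251 and 204.

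Tubulins and their binding proteins included 10 higher and 3 lower of 20, and beta-tubulins changed in both directions. Some of the lower calls were lost without an endoderm repeat, but that of TUBB4A was kept under every setting. TUBB3, best known from neurons, rose from 122 and 188 counts to 947 and 989 (log2 fold change 2.84 ± 0.34 SE), while TUBB4A fell from 31 and 29 counts to 0 and 0. TUBA1A rose from 199 and 314 to 1215 and 1672, and the abundant TUBB did not pass the test (1615 and 2317 against 1922 and 2108). Tubulins and actins have near-identical relatives, and how reads shared between them were counted is not stated.

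**Figure D3:**
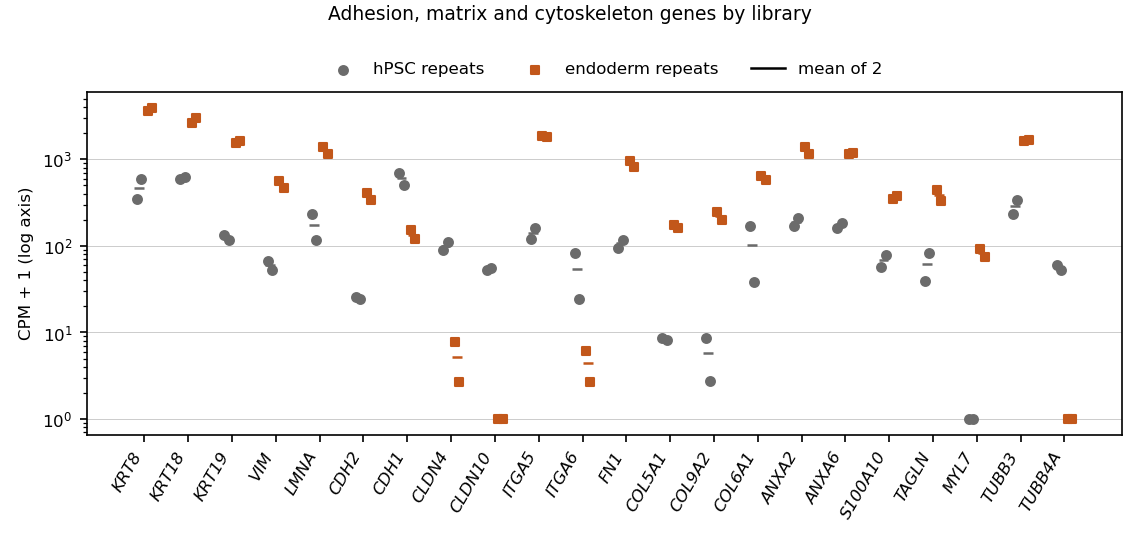
CPM plus 1 on a log axis for 22 adhesion, matrix and cytoskeleton genes in the 2 hPSC (circles) and 2 endoderm libraries (squares), with bars at the mean of 2. CDH1, CLDN4, CLDN10, ITGA6 and TUBB4A lie lower in endoderm, and the other 17 lie higher in both endoderm libraries.

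Of 24 tested lysosome and autophagy genes 12 were higher, 1 lower and 11 did not pass, with a median of 1.05. The autophagy receptor SQSTM1 rose from 77 and 72 counts to 293 and 282, the proton pump subunit ATP6AP1 from 88 and 85 to 336 and 362, and NPC2, which moves cholesterol out of lysosomes, from 18 and 42 to 150 and 119. PSAP, the precursor of the saposins, did not pass the test (1146 and 1897 against 1454 and 1227). Of 34 secretory pathway genes 11 were higher, 1 lower and 22 did not pass, with a median of 0.71. The translocon subunit SEC61A1 rose from 229 and 211 counts to 681 and 808, the disulfide isomerase P4HB from 546 and 339 to 1629 and 1476, and the chaperone HSPA5 from 1089 and 1340 to 3322 and 3061. The lower gene was CREB3L1, a membrane-bound transcription factor, with 63 and 33 counts against 2 and 4.

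Of 26 tested protease inhibitors and extracellular proteases 12 were higher and 4 lower. The smallest p of the list was that of SERPINB9, the granzyme B inhibitor, which rose from 27 and 22 counts to 942 and 891 (log2 fold change 5.44 ± 0.35 SE, adjusted p = 1.25e-07 by edgeR). The protease FURIN, which cuts NODAL precursors among others, rose from 13 and 12 counts to 56 and 70, MMP14 from 40 and 15 to 172 and 168, and SERPINE2 from 29 and 19 to 360 and 149. TFPI, an inhibitor of clotting, fell from 16 and 15 counts to 0 and 0. Without endoderm repeat 1 the counts were 5 higher and 1 lower, and without repeat 2 1 was lower.

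Of 28 tested genes of sterol synthesis 9 were higher and 1 lower, with a median of 0.49. The enzymes TM7SF2 (15 and 12 counts against 63 and 74), FDPS (98 and 158 against 407 and 515), MVD (55 and 61 against 160 and 250), ACAT2 (94 and 177 against 344 and 529) and DHCR7 (135 and 194 against 370 and 560) were higher. FDFT1 was within its spread (333 and 527 against 293 and 419). Apolipoproteins were represented by APOA1 (0 and 1 counts against 107 and 107), APOA2 (0 and 0 against 17 and 33) and APOC1 (8 and 18 against 44 and 57). In fatty acid metabolism the elongase ELOVL2 went from 0 and 0 counts to 25 and 22, and ELOVL6 from 24 and 13 to 3 and 2.

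Single genes of sugar and amino acid metabolism changed. The glucose transporter SLC2A3 rose from 637 and 985 counts to 7786 and 5999 (log2 fold change 3.27 ± 0.41 SE). Pyruvate kinase PKM rose from 2542 and 4499 to 10700 and 10558, a call lost with 4 libraries only, and the phosphofructokinase PFKL from 310 and 255 to 553 and 599. The hexokinase HK1 fell from 548 and 604 counts to 199 and 177, and LDHB, a lactate dehydrogenase subunit, had 401 and 393 against 140 and 99, a call lost without endoderm repeat 2. Of 25 glycolysis genes 4 were higher and 5 lower, against 13.4% and 13.5% of all genes tested. Without hPSC repeat 2, 9 were higher, and without endoderm repeat 1 or 2 the lower count was 2 and 1. Of 38 subunits of respiratory complex I, 1 passed the test as higher. Without hPSC repeat 2, 10 were higher, and without hPSC repeat 1, 5 were lower.

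The 2 subunits of a large amino acid exchanger rose together, SLC3A2 from 390 and 519 counts to 1810 and 1941 and SLC7A5 from 416 and 103 to 1372 and 904. In the list of the ATF4 amino acid response 8 of 21 tested genes were lower and 2 higher, the 2 higher being SLC3A2 and SLC7A5. PHGDH, the entry enzyme of serine synthesis, had 507 and 866 counts against 212 and 221, a call lost without either endoderm repeat. DDIT4, an inhibitor of mTORC1, fell from 412 and 634 counts to 67 and 47. Of 20 aminoacyl-tRNA synthetases 6 were lower and 2 higher. LARS1 fell from 131 and 113 counts to 21 and 26, and AARS1 from 358 and 525 to 117 and 97. Without endoderm repeat 1 or repeat 2 the lower counts were 2 and 2 for the ATF4 list, and 3 and 4 for the synthetases.

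In the cell cycle list 11 of 28 tested genes were lower, 2 higher and 15 did not pass, with a median of -0.86. The checkpoint kinase BUB1B fell from 79 and 70 counts to 6 and 4 (log2 fold change -3.66 ± 0.41 SE), CCNA2, a cyclin of S phase and mitosis, from 106 and 68 to 9 and 8, and CCND2 from 172 and 139 to 44 and 33. CDKN1A, an inhibitor of cyclin-dependent kinases, rose from 34 and 46 counts to 327 and 314 (3.21 ± 0.33 SE), and the antiproliferative BTG2 from 3 and 6 to 133 and 109. Of 20 tested p53 targets 5 were higher and none lower, with 9 higher without hPSC repeat 1 and 3 without either endoderm repeat.

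In DNA replication 10 of 34 genes were lower and none higher, and in ribosome biogenesis 10 of 26 were lower and 1 higher, with medians of -0.72 for both. MCM10 fell from 35 and 42 counts to 4 and 5, MCM3 from 499 and 784 to 150 and 128, and nucleophosmin (NPM1) from 515 and 414 to 111 and 118. Among RNA-binding and splicing regulators 13 of 40 were lower and 1 higher. IGF2BP3, an oncofetal mRNA-binding protein, fell from 96 and 58 counts to 13 and 10, and LIN28B from 17 and 18 to 3 and 3, a call lost with reference-matching transcripts only. LIN28A did not pass the test, with 421 and 344 counts against 489 and 446. Of 74 ribosomal protein genes, 2 were higher and 2 lower, with a median of 0.12, and without hPSC repeat 2, 13 were higher.

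These lower counts rested on both endoderm libraries. Without endoderm repeat 1 or 2 the cell cycle list had 6 and 6 lower genes, DNA replication 4 and 2, ribosome biogenesis 3 and 3, and the RNA-binding list 5 and 3. Without hPSC repeat 1, replication had 15.

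**Figure D4:**
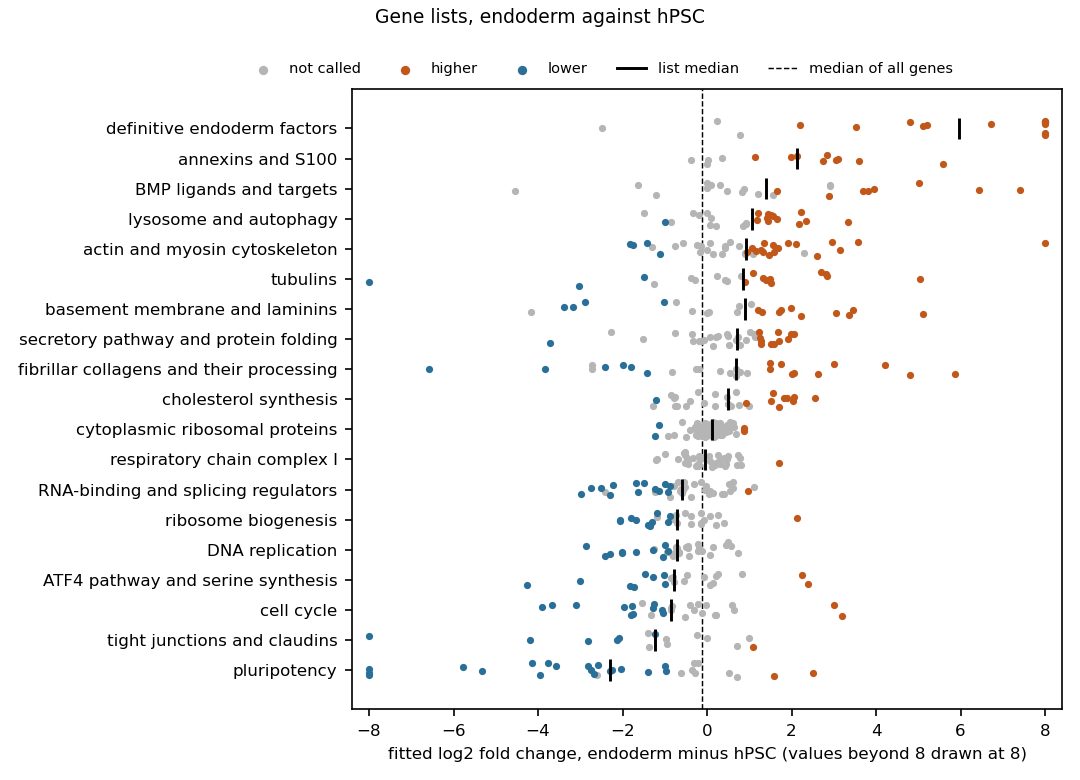
Fitted log2 fold change of endoderm over hPSC for the tested members of 19 gene lists, 1 point per gene, coloured by call. Black bars are list medians and the dashed line is the median of all genes tested. The medians of annexins (2.12), lysosomal (1.05) and actin genes (0.93) lie right of it, and those of pluripotency (-2.30), tight junction (-1.23) and cell cycle genes (-0.86) left.

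The pluripotency list had 19 of 29 tested genes lower and 2 higher, with a median of -2.30. ESRG, a noncoding RNA of pluripotent cells transcribed from an endogenous retrovirus, fell from 1158 and 1551 counts to 31 and 12, 68.3-fold (50.5 to 94.6). The deubiquitinase USP44 fell from 96 and 53 counts to 2 and 1, the surface protein THY1 from 205 and 377 to 14 and 15, and the calcium sensor VSNL1 from 42 and 48 to 0 and 0. DNMT3B, a de novo DNA methyltransferase, fell from 381 and 364 to 52 and 43 (log2 fold change -2.76 ± 0.30 SE). PHC1, a Polycomb subunit, fell from 571 and 832 to 44 and 40 (-3.87 ± 0.36 SE), while the Polycomb subunit CBX2 (127 and 85 against 92 and 84) did not pass the test.

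Of the core factors, POU5F1 (OCT4) fell from 372 and 352 counts to 61 and 69. NANOG did not pass the test (79 and 129 counts against 92 and 65), and in ectoderm and mesoderm it had at most 3 counts per library. Both have processed copies in the genome, and how shared reads were counted is not stated. SOX2 had no count in endoderm, and 71 and 5 in the hPSC repeats, which differed, and its call was lost without either endoderm repeat. Other genes at the low end of the ranking were CAMKV (81 and 85 counts against 1 and 0), VASH2 (105 and 55 against 1 and 0), the noncoding LINC01013 (131 and 121 against 4 and 3), CDCA7L, a MYC-interacting protein (195 and 306 against 7 and 7), and the metallothionein MT1X (48 and 49 against 2 and 0). Of these, CDCA7L was also lower than in ectoderm and mesoderm.

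Chromatin and imprinted genes changed one by one. MACROH2A2, a histone variant of silent chromatin, rose from 17 and 9 counts to 79 and 99. The paternally expressed PEG10, derived from a retrotransposon, rose from 18 and 13 counts to 253 and 228 (log2 fold change 4.17 ± 0.39 SE), and MEST, also paternally expressed, fell from 212 and 193 to 21 and 19. GNAS fell from 287 and 435 to 73 and 78.

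Long reads also show which transcript of a gene was made. Of 2601 genes with at least 2 tested transcripts, 56 (2.15%) changed their proportions at an adjusted p under 0.05 (edgeR diffSpliceDGE, Simes), and 132 (5.07%) by its gene-wise F test. Without endoderm repeat 1 or 2 the Simes count was 5 and 10, and without 1 ectoderm or mesoderm library between 13 and 22. In 37 of these, at least 1 tested transcript moved by 20 percentage points or more with the repeats apart. Of the 12 genes with the smallest Simes p, POLR3C changed most. It is a subunit of RNA polymerase III, on chromosome 1 (145824053 to 145844402). A transcript that starts 142 bases upstream rose from 3 and 4 counts to 49 and 63, and from 11.1% and 10.5% of the gene to 83.1% and 82.9%. The downstream form fell from 20 and 31 counts to 5 and 2. In CDIP1, a regulator of cell death on chromosome 16, the form that starts 303 bases upstream with its own first exon went from 22 and 20 counts to 132 and 130, and from 13.1% and 7.97% to 80.5% and 79.8%. Both of these changes were called under all 13 alternative settings.

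Reads were then summed over all transcripts of a gene that begin nearer the upstream start. For ATG13, an autophagy initiator, the share was 14.6% and 15.7% in hPSC and 71.4% and 67.9% in endoderm, and between 15.5% and 24.5% in the ectoderm and mesoderm libraries. For the zinc finger gene ZNF76 it was 35.5% and 44.0% against 90.7% and 96.2%, with 34.5% to 40.0% in the other layers. For the channel VDAC2 it was 3.25% and 2.11% against 25.3% and 26.8%, for the tethering factor VPS52 9.23% and 9.30% against 50.6% and 43.4%, and for GTF3C5, a subunit of an RNA polymerase III factor, 2.78% and 7.21% against 22.8% and 27.7%. The calls for ATG13, VPS52 and GTF3C5 were lost without either endoderm repeat. That of VPS52 was also lost with no low-count filter and without either ectoderm repeat. Those of GTF3C5 and VDAC2 were lost with reference-matching transcripts only, and that of ZNF76 with 4 libraries only. In these 5 genes neither the hPSC nor the other layers' libraries reached the endoderm range. Across the 37 genes the rising form started at least 50 bases upstream in 19, at least 50 bases downstream in 11, and within 50 bases in 7.

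**Figure D5:**
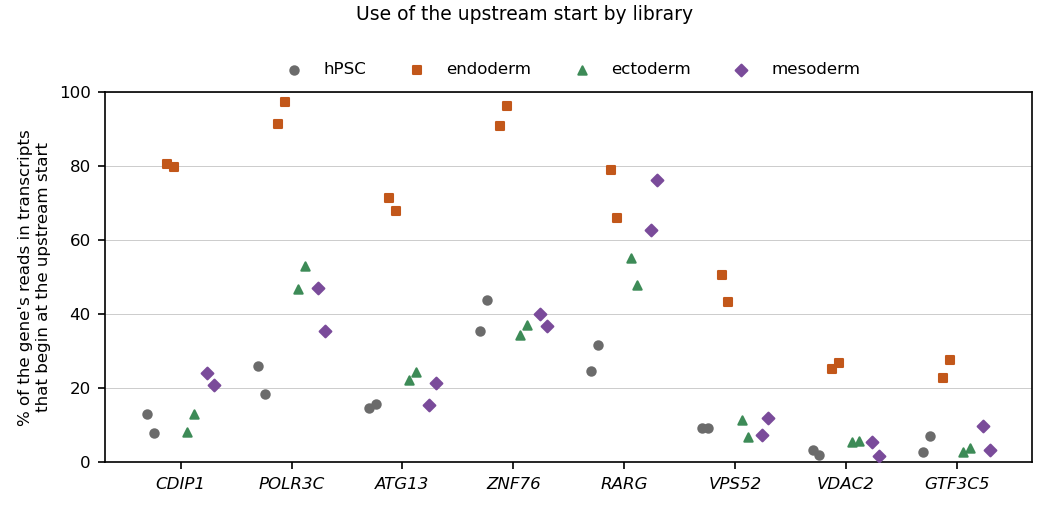
Percentage of a gene's reads in transcripts that begin nearer the upstream of 2 starts, for 8 genes in all 8 libraries (2 points per group). The endoderm squares lie above both hPSC circles in every gene, and above the ectoderm and mesoderm points in 7 of the 8, with RARG as the exception.

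RARG, a retinoic acid receptor on chromosome 12, changed its first coding exon. Reads starting on the upstream side made up 24.7% and 31.8% in hPSC and 79.0% and 66.0% in endoderm, with 47.9% to 76.2% in the other layers. The falling form had 66 and 50 counts in hPSC and 12 and 14 in endoderm, and the rising form 6 and 5 against 22 and 10. The starts lie 11838 bases apart. Each form opens with its own start codon and a different run of coding bases, shown from GENCODE 29 (GRCh38, minus strand) with the start codon in capitals, at chr12:53227362-53227545 for the rising and chr12:53219950-53220100 for the falling form.
RARG rising first coding exon: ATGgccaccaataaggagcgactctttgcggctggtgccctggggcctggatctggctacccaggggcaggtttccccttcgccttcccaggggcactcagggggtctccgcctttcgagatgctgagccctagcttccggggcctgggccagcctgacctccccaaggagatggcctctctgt
RARG falling first coding exon: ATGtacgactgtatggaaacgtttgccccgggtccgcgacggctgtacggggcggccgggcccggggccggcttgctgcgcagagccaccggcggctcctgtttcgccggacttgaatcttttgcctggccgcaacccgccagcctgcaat
The call for RARG held under 6 of 12 alternative settings, and it was lost with no low-count filter and without hPSC repeat 1, endoderm repeat 1, either ectoderm repeat or mesoderm repeat 1.

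In ADD1, a cap protein of actin filaments, endoderm used less of an exon of 34 bases near the 3′ end (chromosome 4, 2926642 to 2926675). The form with it fell from 48 and 39 counts to 15 and 18, and from 29.3% and 29.5% of the gene to 5.26% and 5.84%. The form without it rose from 65 and 49 counts to 161 and 176. In ectoderm the share of the form with the exon was 6.44% and 7.34%. The ADD1 call was lost without either endoderm repeat and with reference-matching transcripts only. The coding part of the exon, in GENCODE 29, is shown because the coding sequence of the reference transcript ends in it.
ADD1 exon, coding part: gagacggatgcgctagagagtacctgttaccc

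COL1A1 and RNF216 also passed. The full COL1A1 transcript fell from 113 and 72 counts to 8 and 7, while a form that starts 1440 bases downstream and ends earlier had 17 and 24 counts against 24 and 33. The whole gene had 130 and 96 counts in hPSC and 32 and 40 in endoderm. In RNF216, a ubiquitin ligase, a short form with a start 68222 bases downstream was at 0 in hPSC and had 13 and 11 counts in endoderm. Both choice calls were lost without either endoderm repeat. That of RNF216 was also lost without hPSC repeat 2 and with reference-matching transcripts only, and that of COL1A1 also without ectoderm repeat 1.

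Of 109 tested transcripts that overlap no reference gene, 15 were higher and 71 lower in endoderm, while of all 12440 transcripts tested 13.1% were higher and 13.7% lower. The lower ones are given by their count alone. The one with the most endoderm reads among the higher ones was a single-exon transcript on chromosome 1 (94570790 to 94572488, minus strand, 1699 bases), with no count in hPSC, ectoderm or mesoderm and 55 and 96 in endoderm. A 2-exon transcript on chromosome 19 (36155467 to 36160698, minus strand) rose from 11 and 16 counts to 48 and 53 and was at 0 in the other layers. The third by endoderm reads lay in the control region of the mitochondrial genome (16024 to 16569, minus strand), with 5 and 22 counts against 36 and 61, and 45 and 35 in ectoderm.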

How the data were processed

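PacBio long-read RNA sequencing of 8 libraries of H1 cells was used, 2 per cell type, grouped by their labels. Per the submitters' processing notes, the tools were minimap2 and StringTie with the GRCh38 (hg38) genome, and the counter and annotation release are not given in the sources used here. The values are raw counts per transcript of the combined assembly, as deposited by the authors. The endoderm columns, deposited by the authors as whole numbers, were entered as estimated counts, and nothing was rounded. That entry was a label only. The endoderm columns hold raw counts like those of the other groups and were handled in the same way. Counts were summed per gene over transcripts that carry a gene name.

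All 8 libraries were fitted with edgeR 4.0.16 in R 4.3.3 (TMM scaling, filterByExpr with a count minimum of 10, quasi-likelihood test, Benjamini-Hochberg, threshold 0.05), and transcript choice with diffSpliceDGE. DESeq2 1.42.0 was an alternative. On simulated data with 4-fold changes, 65.5% of changed genes among 10525 were recovered, with 5.76% false calls. Intervals are 95% exact conditional binomial ones and cover counting error only. A fold against a group at 0 uses 3 counts over the group. Tables used Python 3.11.15 and pandas 2.3.3.

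The genes and lists were chosen with earlier results of these data known. Named are the endoderm markers, genes among the 15 highest and 15 lowest pooled ratios with at least 10 CPM, up to 6 called and 2 abundant uncalled members per list, the 12 genes with the smallest Simes p whose shares moved by 20 points, and the 3 transcripts without a reference gene that had the most endoderm reads. Promoters are from RefSeq GRCh38.p14 and coding sequence from GENCODE 29. Some genes that this rule names are not reported here.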

Additional observations from a re-analysis of the deposited data

How the results depend on the processing

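In no alternative did a gene or transcript called in both fits change sign between endoderm and hPSC. The count of 2831 genes was 1882 with 4 libraries only and 1741 by DESeq2, and ranged from 1360 without endoderm repeat 2 to 4002 without hPSC repeat 2. The 3331 transcripts became 1606 by DESeq2, with a range from 1573 to 4819 on leaving out 1 library. The 56 genes with changed transcript choice became 20 with no low-count filter, 33 with 4 libraries only and 29 with reference-matching transcripts only, with a range from 5 without endoderm repeat 1 to 84 without hPSC repeat 2. With the replicate number as a block, 2686 genes and 3036 transcripts were called and choice fell to 31 genes. In the labels the repeats share only a number, so the main fit used no pairing. Deviations of same-numbered hPSC and endoderm libraries correlated at 0.152 and those of other pairs of groups between -0.04 and 0.08. Of the 16 genes at least 4-fold lower in endoderm repeat 2, 9 were also at least 4-fold lower in hPSC repeat 2. Whether the libraries numbered 2 share an effect was not tested. All rows listed under a gene gave 1584 higher and 1229 lower. The cause of these differences was not tested.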
